A study of Arabidopsis thaliana with 15 samples.

Results

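The primary transcripts of microRNA (miRNA) genes were followed in hypocotyl explants of Arabidopsis thaliana, ecotype Col-0, as they formed callus and shoots at 17 °C and at 27 °C. The deposited table held 33602 annotated rows with read counts, of which 177 were annotated as miRNA, and a miRNA row was kept when its counts summed to 20 or more over the 15 libraries. This rule kept 56 rows, or 31.6% of the miRNA rows, where 67.1% of all rows reached that sum. Of the other miRNA rows, 60 had no count and 61 had 1 to 19. The 56 transcripts were thus chosen by their summed counts, which are given as a description. Of these, 16 reached 20 counts only with the group in which they had most counts, so that their difference from other groups is in part set by the rule. Single values of those 16 are described below with no test. Counts of calls by the main test include them and are also given for the other 40. Counts by unadjusted p, by other settings of the test, of groups that did not overlap and in a range of low totals include the 16. Just inside the limit were MIR169c and MIR159a with 20 counts and MIR852 and MIR779 with 21. Just outside were MIR863 and MIR853 with 19 counts, MIR161 with 18, and MIR403 and MIR170 with 16. All 56 were tested in every comparison.

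The seedlings were etiolated and 7 days old, raised at 22 °C, and a sample pooled about 100 explants. In the 0 h group the explants were taken before any medium. The CIM groups had spent 4 days at 17 °C or 27 °C in continuous light on callus-inducing medium, with kinetin at 0.1 mg/L and the auxin 2,4-D at 0.5 mg/L. The SIM groups had then spent 4 further days at 17 °C or 27 °C on shoot-inducing medium, which carried the auxin IAA (0.15 mg/L) beside 2-iP (0.5 mg/L). Each of these 5 groups had 3 libraries, all of the same wild-type ecotype with no transgene named. Between 0 h and CIM the light, the hormones, the temperature and the time changed together and cannot be told apart. Between CIM and SIM the medium, the age of the culture and the time spent at 17 °C or 27 °C also changed together. Differences between CIM and SIM, those of the temperature effect included, therefore cannot be assigned to the medium alone. Nothing in the labels states that the 3 samples of a group were separate cultures, so the p-values measure only how far these samples varied, and that variation may be technical. In bulk samples, fewer cells of a type and less RNA per cell cannot be told apart.

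Plant miRNA genes are transcribed by RNA polymerase II into capped and polyadenylated primary transcripts, from which the nuclease DCL1, with HYL1 and SE, cuts a short duplex. One strand is loaded into AGO1 and guides the cleavage or repression of messenger RNAs with a near-perfect site. In shoots and callus the miR156 family holds back the SPL factors of the adult phase, miR160 and miR167 act on auxin response factors, and miR164 acts on the CUC boundary genes. The families miR397, miR398, miR408 and miR857 are made when copper is short and act on messenger RNAs of copper proteins. The libraries here were made from messenger RNA, so the counts describe primary transcripts and what is left of them after processing, and the level of the short miRNA was not measured.

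The mature sequences of the families that the results turn on, and of MIR414, are shown first, because they say which targets a transcript can address. They were read from the RefSeq annotation of the assembly TAIR10.1, which held a mature sequence for all 56 transcripts, and the capitals mark the seed, bases 2 to 8.
miR156c-5p, the same in MIR156d and MIR156f: uGACAGAAgagagugagcac
miR157b-5p: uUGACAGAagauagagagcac
miR159b-3p: uUUGGAUUgaagggagcucuu
miR319b: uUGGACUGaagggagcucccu
miR160c-5p: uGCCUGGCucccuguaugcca
miR167d: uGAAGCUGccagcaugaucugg
miR169a-5p: cAGCCAAGgaugacuugccga
miR398b-3p, the same in MIR398c: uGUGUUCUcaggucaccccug
miR408-3p: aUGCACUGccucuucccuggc
miR857: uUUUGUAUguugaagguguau
miR163: uUGAAGAGgacuuggaacuucgau
miR168a-5p: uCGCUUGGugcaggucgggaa
miR824-5p: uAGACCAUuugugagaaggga
miR390a-5p: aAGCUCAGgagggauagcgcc
miR414: uCAUCUUCaucaucaucguca
The 5p strands of MIR156c, MIR156d and MIR156f share the seed GACAGAA, and that of miR157b, UGACAGA, is the same stretch shifted by 1 base. The transcripts MIR169a, MIR169b, MIR169c, MIR169k and MIR169m share AGCCAAG, MIR167b and MIR167d share GAAGCUG, MIR160b and MIR160c share GCCUGGC, and MIR398b and MIR398c share GUGUUCU.

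Where reads of a miRNA row could come from another gene decides how its counts can be read, and the coordinates showed such overlaps for 20 of the 56 rows. No base was shared with another row by 36 transcripts, which held 9039 of the 21507 counts. A gene on the same strand covered 16 transcripts, with 2281 counts, and a gene on the other strand covered 4, with 10187. The rows were short, with a median of 157 bases and a range from 78 to 2897. Per kilobase of row, the transcripts had 15.4 to 4396.8 counts, with a median of 362.6. Most of the reads lay in few rows, since MIR398c (5135 counts), MIR156c (3658), MIR408 (2891), MIR414 (2472) and MIR824 (1718) held 73.8% of them. All 56 together took 0.036% of the counts in the table. In the reference genome 47 transcripts had no 32-base window that occurs anywhere else, and 4 had less than 90% of such windows unique, which were MIR157b (80.0%), MIR169m (81.8%), MIR447a (62.1%) and MIR398b (89.4%).

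The library kit keeps strand, but the counts did not separate the strands. Across the table, 157 rows lay wholly inside a gene with 1000 counts or more on the other strand, and 155 of them had counts. Their median read density was 1.12 times that of the enclosing gene, and 104 were within 2 times of it. The same was seen at MIR398c (AT5G14565, chr5:4694626-4697013, plus strand), which shares 1930 bases, 80.8% of its row, with the nitrate transporter gene NRT2.7 (AT5G14570) on the minus strand. In the 15 libraries MIR398c had 1.02 to 1.05 times the counts of NRT2.7. The 2 mature sequences of MIR398c lie at chr5:4694705-4694798, in the 458 bases that NRT2.7 does not cover. MIR408 (AT2G47015, chr2:19319780-19321026, plus strand) lies wholly inside AT2G47020 on the minus strand, with 0.697 to 0.845 times its counts. MIR398b (AT5G14545, chr5:4691022-4691137, plus strand) lies inside AT5G14550, with 0.0667 to 0.140 times its counts. MIR824 (AT4G24415, chr4:12623536-12626432, plus strand) shares only 17.4% of its row with AT4G24410, which had 104 counts in all. Reads of the miRNA transcript and of the opposite gene cannot be told apart for MIR398c, MIR408 and MIR398b, and changes of these rows are changes of the shared locus.

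**Figure D1:**
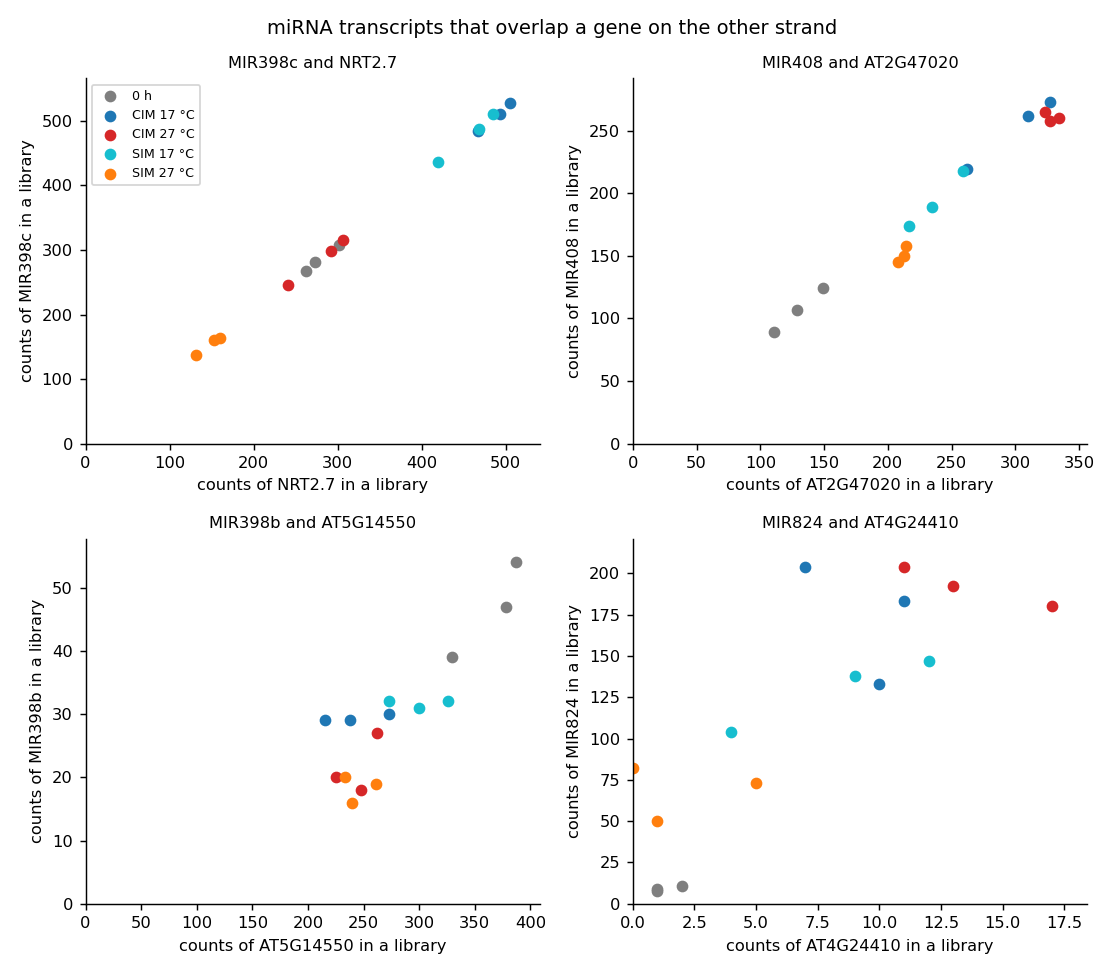
Counts in each of the 15 libraries of the 4 miRNA transcripts that overlap a gene on the other strand (y axis) against the counts of that gene (x axis), with a point per library coloured by group. MIR398c and NRT2.7 had nearly equal counts in every library, at a ratio of 1.02 to 1.05, while MIR824 had 50 to 204 counts outside the 0 h group where AT4G24410 had 0 to 17.

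Libraries held 3427707 to 4446863 counts, of which the 56 transcripts had 973 to 1853. Scaled to 1000000 counts per library, they took 289 to 331 counts in the 0 h libraries. In CIM libraries this sum was 438 to 451 at 17 °C and 379 to 381 at 27 °C, and in SIM libraries it was 409 to 433 and 232 to 254. Without the 20 that overlap another row, these ranges were 136 to 158, 153 to 171, 156 to 157, 170 to 180 and 105 to 121. The SIM libraries at 27 °C were thus the lowest on either sum. Levels below are in CPM, counts per 1000000 counts of a library scaled by TMM factors. Summed root-type callus markers (5 genes) stood at 418 to 469 CPM after CIM at 17 °C and 419 to 432 at 27 °C. In SIM libraries they stood at 61.5 to 67.4 CPM at 17 °C and 39.5 to 42.9 at 27 °C. Summed xylem markers (3 genes) stood at 156 to 159 and 92.2 to 105 CPM after CIM at 17 °C and 27 °C, and at 216 to 218 and 165 to 170 after SIM. Both lists were thus lower at 27 °C after SIM, as the miRNA sum was, and their part in the results was not tested. Other lists were higher at 27 °C after SIM. The 5 shoot meristem markers stood at 128 to 131 CPM after SIM at 27 °C and 57.8 to 60.7 at 17 °C. Photosynthesis markers stood at 215 to 227 and 160 to 172 CPM, and root hair markers (2 genes) at 50.1 to 60.8 and 27.8 to 38.9. Before any medium and after CIM at both temperatures, WUS and CLV3 were at 0, and they had counts only after SIM. STM was also at 0 after CIM at 27 °C. Some libraries stood apart from their group. Summed seed maturation markers (7 genes) ranged from 4.10 to 1130.0 CPM at 0 h, and photosynthesis markers (6 genes) from 41.2 to 128 CPM after CIM at 17 °C. Library 2 of CIM at 27 °C had counts in 24396 rows, where libraries 1 and 3 of that group had 22350 and 22343. Results are therefore also given without library 3 of CIM at 17 °C and library 2 of CIM at 27 °C where a call was lost. Only these are meant below by the libraries that stand apart. Each 0 h library was left out only on its own. Libraries 1 and 3 of CIM at 27 °C differed by less than the sampling noise, since a binomial test passed 0 genes between them, and were counted as 1 sample in means. Their chi-square per gene was 0.717. Over all 9 pairs of this group and of the SIM groups it was 0.701 to 0.878, with at most 13 genes past the test, so that some other pairs were as close by this measure. The other pairs were kept apart, so that means and SDs have n = 2 for CIM at 27 °C and n = 3 elsewhere. An SD in CIM at 27 °C and in the SIM groups covers on average no more than counting noise. In CIM at 27 °C, with 1 of the 2 values a mean of 2 libraries, an SD can lie far below that noise. An example is MIR419, with an SD of 0.0199 CPM at 6, 4 and 3 counts. Such SDs, also those of MIR398b and MIR824, do not show precision. The tests took all 15 libraries as separate samples, libraries 1 and 3 of CIM at 27 °C included. With this pair summed, 1 call of a named transcript was lost.

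Between the temperatures 11 of the 56 miRNA transcripts were called after CIM and 14 after SIM, and most of them were lower at 27 °C. Changes were tested with edgeR's quasi-likelihood test over 22559 rows, with Benjamini-Hochberg adjustment and a limit of 0.05 on the adjusted p. After CIM, 3 transcripts were higher and 8 lower at 27 °C than at 17 °C, 19.6% of the 56, where 39.8% of all rows passed, 19.4% of them higher and 20.4% lower. After SIM, 14 were lower at 27 °C and 0 higher, 25.0% of the 56 against 41.3% of all rows, of which 21.7% were lower and 19.6% higher. With an unadjusted p under 0.05, 16 were lower and 3 higher after SIM, where 24.9% and 23.2% of all rows were. The DESeq2 Wald test called 10 lower and 0 higher, where it called 32.6% of all rows in either direction. Without library 3 of SIM at 17 °C 2 were higher, and without library 2 of SIM at 17 °C or library 3 of SIM at 27 °C 1 was. The temperature effect differed between the SIM and the CIM groups for 5 transcripts, 8.93% against 16.9% of all rows. In all 5 the effect after SIM was the more negative one, where 9.07% of all rows went that way and 7.8% the other. With an unadjusted p under 0.05, 9 transcripts went that way and 0 the other, where 13.8% and 12.2% of all rows did. After both media 0 transcripts were higher at 27 °C and 6 lower, where 10.7% and 11.8% of all rows were. Without the 16 transcripts kept through 1 group, 3 of 40 were higher and 7 lower after CIM (25.0%), and 13 were lower after SIM (32.5%). Of these 40, 6 were lower after both, and the temperature effect differed for 5 (12.5%), in all 5 more negative after SIM. The median log2 fold change of the 56 was 0.14 after CIM and -0.48 after SIM, where the medians over all rows were 0.01 and -0.00.

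More of them were called between 0 h and CIM, as were more of all rows. Against 0 h, 14 transcripts were higher and 13 lower after CIM at 17 °C, 48.2% against 74.0% of all rows, of which 37.6% were higher and 36.4% lower. After CIM at 27 °C the numbers were again 14 and 13, 48.2% against 76.8% of all rows, with 38.9% higher and 37.9% lower. Without the 16 kept through 1 group, 11 of 40 were higher and 9 lower at each temperature. In the step from CIM to SIM at 17 °C, 6 rose and 8 fell, 25.0% against 45.5% of all rows, of which 22.3% rose and 23.1% fell. At 27 °C, 4 rose and 9 fell, 23.2% against 47.1% of all rows, of which 23.2% rose and 23.9% fell. Of the 40, 5 rose and 6 fell at 17 °C, and 4 rose and 9 fell at 27 °C. Leaving out any 1 of the 6 libraries compared at 17 °C gave 8 calls in place of 14, DESeq2 gave 6, and 7 remained without the libraries that stand apart. At 27 °C, leaving out library 3 of SIM gave 8 calls in place of 13, and DESeq2 gave 8. The groups did not overlap for 17 and 21 transcripts between the temperatures after CIM and SIM, against 51.2% and 54.6% of all rows. Between 0 h and CIM they did not overlap for 28 transcripts at 17 °C and 33 at 27 °C, against 76.5% and 79.9% of all rows. Between CIM and SIM the numbers were 22 and 18, against 55.0% and 58.4%.

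Shares were also taken in a range of low totals, 20 to 100 counts, that was chosen after the values were seen. Within it the median total was 32.5 counts for the 36 transcripts and 45.0 for the 2234 rows, so depth was not matched. Of the 36 transcripts, 3 were called between the temperatures after CIM, 8.33% against 19.0% of the 2234 rows in that range, and 1 after SIM, 2.78% against 23.4%. Against 0 h, 38.9% of the 36 were called after CIM at 17 °C and 30.6% at 27 °C, where 45.4% and 47.1% of the rows in that range were.

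**Figure D2:**
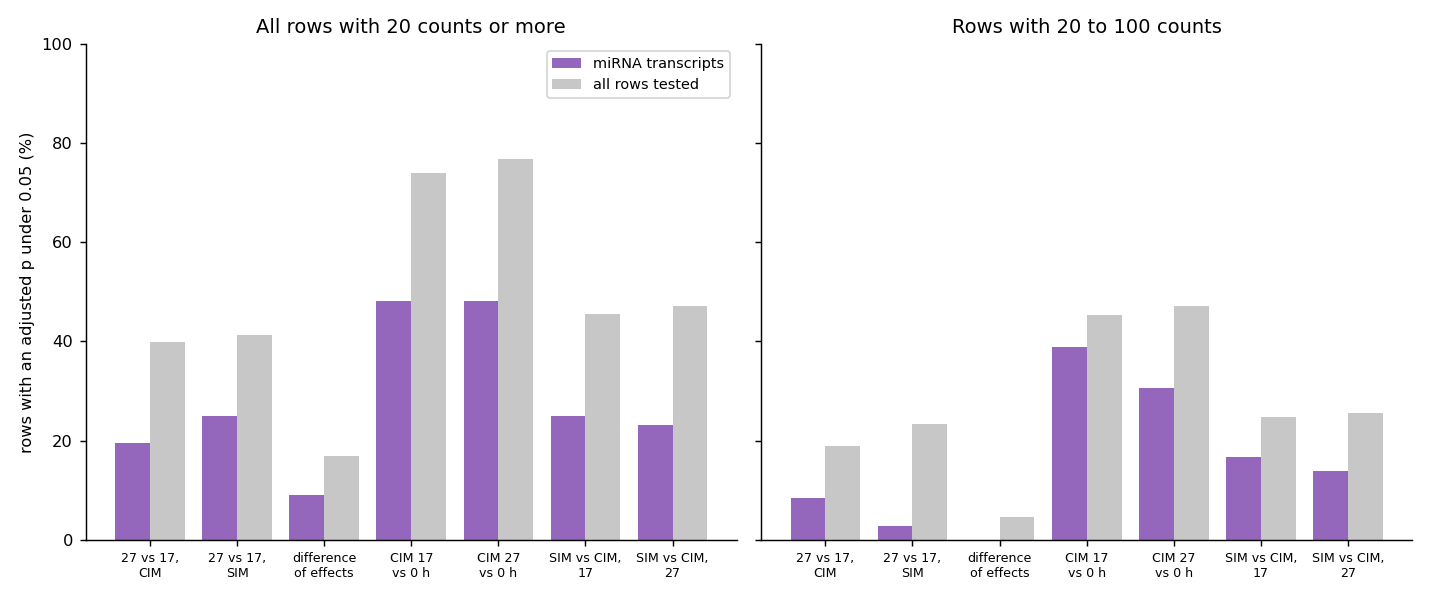
Percent of rows with an adjusted p under 0.05 (y axis, 0 to 100%) in the 7 comparisons (x axis), for miRNA transcripts (purple) and all rows tested (grey), on the left for all rows with 20 counts or more and on the right for rows with 20 to 100 counts. In each of the 7 comparisons the purple bar is the lower one, for example 19.6% against 39.8% between the temperatures after CIM.

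The miR156 family, which restrains the SPL factors and with them the change from juvenile to adult shoots, was led by MIR156c (AT4G31877), a row that overlaps no other. MIR156c had 122, 162 and 152 counts at 0 h, 220, 294 and 273 after CIM at 17 °C, 339, 313 and 371 after CIM at 27 °C, 302, 239 and 268 after SIM at 17 °C and 225, 199 and 179 after SIM at 27 °C. The 3 libraries at 0 h were below every CIM library, and after SIM the libraries at 27 °C were below those at 17 °C. Its level rose from 42.5 ± 5.68 CPM (SD) at 0 h to 67.4 ± 3.64 after CIM at 17 °C, by 0.67 ± 0.08 (SE) on the log2 scale (adjusted p = 2.65e-09), and to 78.6 ± 1.34 at 27 °C, by 0.89 ± 0.07 (adjusted p = 6.04e-13). Between temperatures it was higher at 27 °C after CIM, by 0.23 ± 0.06 (adjusted p = 0.00437), and lower at 27 °C after SIM, at 46.0 ± 4.61 against 67.1 ± 3.61 CPM, a log2 change of -0.54 ± 0.07 (adjusted p = 1.24e-07). The difference between these temperature effects was -0.77 ± 0.10 (adjusted p = 1.61e-07).

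MIR157b (AT1G66795), whose miRNA addresses the same SPL sites, was at 0 in all 0 h libraries and was most abundant in callus at 27 °C. It had 0, 3 and 3 counts after CIM at 17 °C, 14, 12 and 8 after CIM at 27 °C, 1, 5 and 2 after SIM at 17 °C and 6, 8 and 7 after SIM at 27 °C. The CIM groups did not overlap. MIR157b rose with temperature after CIM, from 0.486 ± 0.421 to 2.73 ± 0.345 CPM, by 2.29 ± 0.60 on the log2 scale (adjusted p = 0.00244), while the value after SIM was 1.23 ± 0.62 (adjusted p = 0.114). Against the floor of 3 counts over the 0 h group it was at least 8.97-fold higher after CIM at 27 °C (adjusted p = 5.37e-06) and at least 1.76-fold higher at 17 °C (adjusted p = 0.0204). The latter call was lost without library 2 at 0 h (adjusted p = 0.0523), without library 2 or 3 of CIM at 17 °C (0.059 and 0.0563), and without the libraries that stand apart (0.06).

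MIR156f (AT5G26147) went the other way and was seen almost only at 0 h. It had 11, 23 and 18 counts there, 0 in all 6 CIM libraries, 1 in a single library of SIM at 17 °C and 0 after SIM at 27 °C. After CIM it was at least 19.7-fold lower at 17 °C and at least 21.9-fold lower at 27 °C. With 52 of its 53 counts at 0 h it was kept through that group alone, so no test is given. Its 90 bases lie in an exon of the non-coding RNA gene AT5G26146 on the same strand, whose density was close to it, at 462.2 against 588.9 counts per kilobase. AT5G26146 had 292, 379 and 359 counts at 0 h, 6, 12 and 18 after CIM at 17 °C and 0, 1 and 1 after CIM at 27 °C, and fell after CIM at both temperatures (adjusted p = 2.41e-23 and 6.76e-25).

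The sites of this family in SPL messenger RNAs are shown because their near-perfect pairing is what links the transcripts to the next values, with bases that cannot pair, or pair only as G with U, in capitals. The site for miR156 in SPL9 (chr2:17589066-17589085, plus strand) has 1 such base, and the SPL3 site (chr2:14305878-14305897, plus strand) has 2.
SPL9 site: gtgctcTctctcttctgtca
SPL3 site: TtgctTactctcttctgtca
Of 11 textbook targets of miR156, 10 were tested, and at 27 °C 2 rose after CIM and 3 after SIM, while the other 8 and 7 did not pass. Of all rows 19.4% and 19.6% rose, so the first count is near the share of all rows. SPL3 (AT2G33810) rose from 1.05 ± 0.373 to 4.39 ± 0.806 CPM after CIM (log2 change 1.99, adjusted p = 0.000177) and from 1.53 ± 1.03 to 5.87 ± 0.724 after SIM (1.88, adjusted p = 3.78e-05). SPL2 (AT5G43270) rose by 0.66 after CIM (adjusted p = 4.55e-06) and 0.49 after SIM (adjusted p = 0.000294). SPL9 (AT2G42200) stood at 0.843 ± 0.331 and 0.743 ± 0.700 CPM after CIM and rose from 1.22 ± 0.673 to 5.06 ± 1.35 CPM after SIM (log2 change 1.99, adjusted p = 0.000138). SPL13A had adjusted p = 0.294 and 0.056. After SIM MIR156c was lower and SPL2, SPL3 and SPL9 higher at 27 °C, whereas after CIM MIR156c, SPL2 and SPL3 were all higher.

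**Figure D3:**
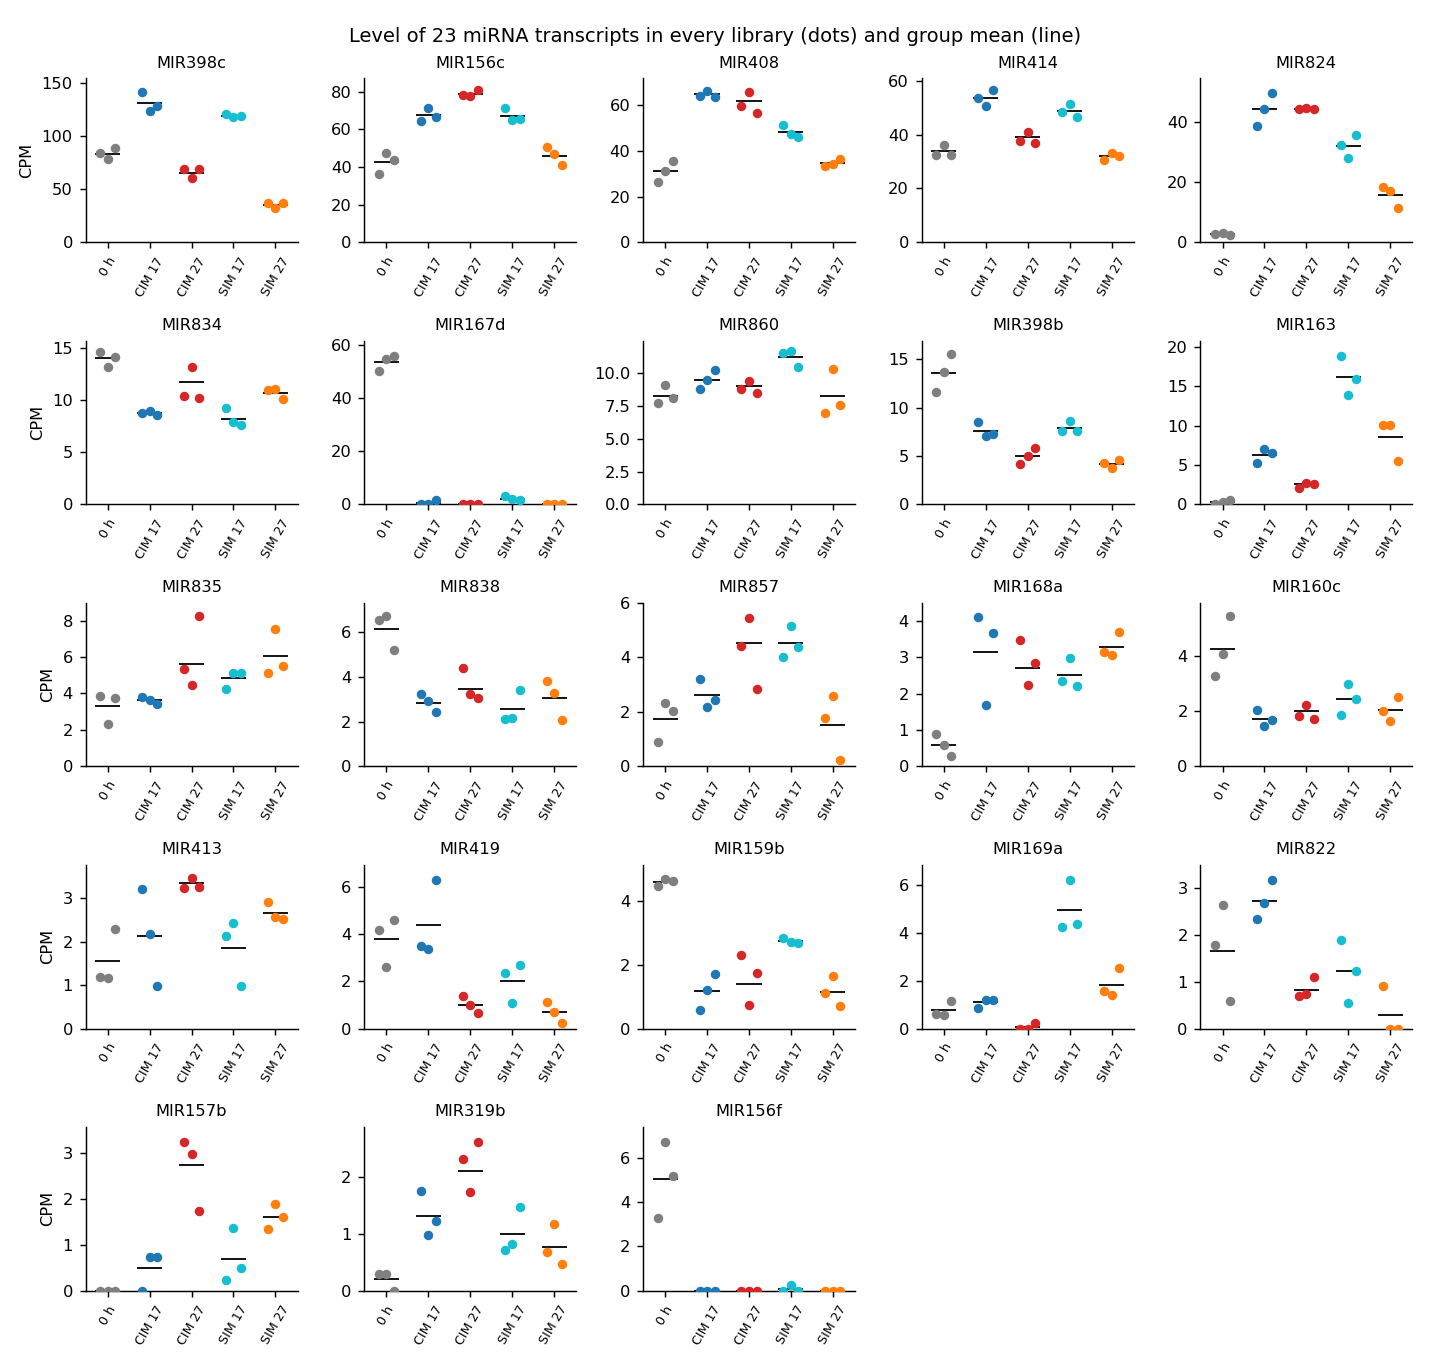
Level in CPM (y axis, linear from 0, a scale of its own in each panel) of the 23 named miRNA transcripts in the 5 groups (x axis, medium and temperature in °C), with a dot per library and a line at the group mean. MIR167d and MIR156f are seen almost only at 0 h, MIR824 and MIR163 are near 0 there, and MIR398c is lower at 27 °C than at 17 °C on both media.

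MIR159b (AT1G18075), the source of a miRNA against GAMYB-type transcription factors, was highest at 0 h. It had 15, 16 and 16 counts at 0 h, 2, 5 and 7 after CIM at 17 °C, 10, 3 and 8 after CIM at 27 °C, 12, 10 and 11 after SIM at 17 °C and 5, 7 and 3 after SIM at 27 °C. All 0 h libraries were above all CIM libraries. It fell from 4.58 ± 0.114 CPM to 1.17 ± 0.56 after CIM at 17 °C, by 1.91 ± 0.41 on the log2 scale (adjusted p = 9.5e-05), and to 1.39 ± 0.907 at 27 °C, by 1.48 ± 0.38 (adjusted p = 0.000636). After SIM it was lower at 27 °C, by a log2 change of -1.24 ± 0.43 (adjusted p = 0.021), but the call was lost with DESeq2 (0.0592) and without library 1 of SIM at 17 °C (0.0532) or library 1 or 3 of SIM at 27 °C (0.0559 and 0.101). Its rise from CIM to SIM at 17 °C (1.17 ± 0.44, adjusted p = 0.0287) was lost with DESeq2 (0.0725) and without library 1 or 2 of CIM (0.119 and 0.0626) or library 1 or 3 of SIM (0.0632 and 0.0509). Of its 5 listed targets MYB120, a factor of pollen tubes, rose at 27 °C after SIM, from 1, 1 and 0 counts to 12, 9 and 12, a ratio of 15.2 (95% counting interval 3.88 to 130, adjusted p = 5.28e-05). MYB120 also rose after CIM, from 2, 1 and 0 counts to 6, 8 and 8, a ratio of 6.6 (1.98 to 34.4, adjusted p = 0.00346), a call lost without the libraries that stand apart (0.0664). MYB101 rose after SIM by 1.24 (adjusted p = 0.0244), a call lost under 5 settings with p up to 0.147. The other tests of the 5 targets between temperatures did not pass, with values after SIM of -0.88 for MYB97, -0.07 for MYB65 and -0.02 for MYB33.

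MIR319b (AT5G41663), the source of a miRNA against TCP factors that limit leaf growth, was low at 0 h, with 1, 1 and 0 counts. It had 6, 4 and 5 counts after CIM at 17 °C, 10, 7 and 12 after CIM at 27 °C, 3, 3 and 6 after SIM at 17 °C and 3, 5 and 2 after SIM at 27 °C. The CIM libraries were all above the 0 h libraries. It rose after CIM, with ratios to 0 h of 6.60 (95% counting interval 1.53 to 59.5, adjusted p = 0.00546) at 17 °C and 11.5 (2.90 to 99.3, adjusted p = 8.92e-05) at 27 °C. The intervals cover counting error only. At 27 °C it fell from CIM to SIM by 1.51 ± 0.50 (adjusted p = 0.0131), a call lost with DESeq2 (0.0624) and without library 3 of CIM (0.0549) or library 3 of SIM (0.0668). Temperature called no change of it after CIM (0.78 ± 0.47, adjusted p = 0.194) or SIM (-0.37 ± 0.60, adjusted p = 0.663). Among its 5 listed targets TCP2 (AT4G18390) fell at 27 °C after CIM, from 16.9 ± 0.929 to 7.57 ± 1.22 CPM (adjusted p = 8.42e-05), and after SIM, from 10.3 ± 1.18 to 4.11 ± 0.902 (adjusted p = 9.17e-05). TCP24 and TCP3 rose at 27 °C after SIM, by 0.68 (adjusted p = 1.35e-07) and 1.27 (adjusted p = 9.59e-07). TCP10 did not pass, with 0.76 after CIM and -0.26 after SIM (adjusted p = 0.115 and 0.319).

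Of the transcripts of families that act on auxin response factors, MIR167d and MIR160c were highest before callus induction. MIR167b, with the same seed as MIR167d, was at 0, 0 and 1 counts there and at 5, 3 and 3 after CIM at 17 °C, its highest group. MIR167d (AT1G31173) had 168, 187 and 194 counts at 0 h, 0, 0 and 7 after CIM at 17 °C, 0 in all libraries of CIM and SIM at 27 °C, and 13, 7 and 6 after SIM at 17 °C. The 0 h libraries were far above all others, and the reads after CIM at 17 °C were all in library 3, which stands apart by its photosynthesis markers. The transcript fell from 53.5 ± 3.17 CPM to 0.567 ± 0.983 after CIM at 17 °C (adjusted p = 5.21e-11), and after CIM at 27 °C it was at least 231-fold lower (adjusted p = 1.42e-11). After SIM it was at least 9.43-fold lower at 27 °C than at 17 °C (adjusted p = 0.00108). After CIM the temperature comparison gave an adjusted p of 0.0583. A rise from CIM to SIM at 17 °C (adjusted p = 0.0494) was lost with the replicate number as a block (0.0795), with the compared libraries alone (0.0534), with DESeq2 (0.169) and without any of libraries 1 and 2 of CIM (0.108 and 0.126) and libraries 1 and 2 of SIM (0.189 and 0.0924).

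The targets of miR167, the auxin response factor genes ARF6 and ARF8, changed by much less than MIR167d did. ARF6 (AT1G30330) stood at 106 ± 9.19 CPM at 0 h, 151 ± 4.23 after CIM at 17 °C, 163 ± 0.283 after CIM at 27 °C, 189 ± 9.10 after SIM at 17 °C and 216 ± 1.95 after SIM at 27 °C. After SIM it rose with temperature by 0.19 (adjusted p = 0.000149) and ARF8 by 0.17 (adjusted p = 0.00177), a call that ended without library 3 of SIM at 27 °C (0.0521). After CIM the values were 0.11 and 0.14 (adjusted p = 0.0456 and 0.0288), and both calls were lost under several settings, with p up to 0.172 and 0.124. IAR3, also a listed target, had -0.02 after CIM and -0.13 after SIM (adjusted p = 0.845 and 0.132).

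MIR160c (AT5G46845), whose miRNA acts on ARF10, ARF16 and ARF17, had 11, 14 and 19 counts at 0 h, 7, 6 and 7 after CIM at 17 °C, 8, 9 and 8 after CIM at 27 °C, 8, 11 and 10 after SIM at 17 °C and 9, 7 and 11 after SIM at 27 °C. The 0 h libraries were above all CIM libraries, and neighbouring groups on medium overlapped. It fell from 4.28 ± 1.12 CPM to 1.74 ± 0.296 after CIM at 17 °C, by 1.3 ± 0.36 on the log2 scale (adjusted p = 0.00167), and to 2.01 ± 0.310 at 27 °C, by 1.14 ± 0.35 (adjusted p = 0.00349). Its temperature effects were 0.17 ± 0.41 after CIM and -0.22 ± 0.37 after SIM, neither past the limit (adjusted p = 0.795 and 0.679). The targets did change with temperature. ARF16 (AT4G30080) fell at 27 °C from 112 ± 8.09 to 73.5 ± 3.42 CPM after CIM (adjusted p = 3.37e-12) and from 35.7 ± 1.84 to 23.2 ± 0.806 after SIM (adjusted p = 4.36e-07), and ARF17 fell by 0.41 and 0.76 on the log2 scale (adjusted p = 0.000892 and 4.31e-08). ARF10 fell by 0.20 after CIM (adjusted p = 0.0245), a call lost under 5 settings, with p up to 0.42.

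The miR169 family acts on NF-YA subunits of a CCAAT-binding factor, and 5 of its transcripts were kept. MIR169a (AT3G13405) had 2, 2 and 4 counts at 0 h, 3, 5 and 5 after CIM at 17 °C, 0, 0 and 1 after CIM at 27 °C, 18, 23 and 18 after SIM at 17 °C and 7, 6 and 11 after SIM at 27 °C. On each medium the groups at 17 °C and 27 °C did not overlap, and 17 °C was the higher one. The ratio of 17 °C to 27 °C was 14.5 after CIM (95% counting interval 2.17 to 614, adjusted p = 0.0023). After SIM the level fell from 4.96 ± 1.1 CPM at 17 °C to 1.83 ± 0.607 at 27 °C, a log2 change of -1.41 ± 0.36 (adjusted p = 0.0016). Between CIM and SIM it rose at 17 °C by 2.11 ± 0.41 (adjusted p = 4.47e-05), and at 27 °C the ratio was 23.7 (3.87 to 976, adjusted p = 4.23e-05). Against 0 h it was lower after CIM at 27 °C, by a ratio of 10.1 (1.35 to 448, adjusted p = 0.00823).

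The other miR169 transcripts stayed under 2 CPM in every group and are singled out after their values were seen. MIR169k had 7, 5 and 6 counts at 0 h and 3 in all over the 6 CIM libraries. MIR169k was kept only through its 0 h counts and MIR169c, next, only through those after CIM at 17 °C, so no test is given for either. MIR169c had none at 0 h, 5, 3 and 6 after CIM at 17 °C and 2, 1 and 1 after CIM at 27 °C. MIR169b had 7, 6 and 5 counts after SIM at 17 °C and 4, 10 and 8 after SIM at 27 °C, against 0 to 4 in every library before SIM. MIR169m, with 81.8% of its windows unique, had 3, 2 and 10 counts at 0 h, 0, 1 and 1 after CIM at 17 °C and 2, 0 and 0 after CIM at 27 °C. The ratio of 0 h to CIM was 8.52 at 17 °C (95% counting interval 1.98 to 76.8) and 9.47 at 27 °C (2.2 to 85.4), and 10 of its 15 counts at 0 h were in library 3. Of 7 NF-YA targets 2 rose and 2 fell at 27 °C after CIM, where 39.8% of all rows were called. After SIM 3 fell, where 21.7% of all rows did, and the other 4 did not pass. NF-YA10 (AT5G06510) rose from 14.7 ± 1.01 to 26.6 ± 0.249 CPM after CIM (adjusted p = 4.61e-07), and NF-YA2 by 0.56 (adjusted p = 9.26e-06). NF-YA3 (AT1G72830) fell after CIM by 0.36 (adjusted p = 0.000159) and after SIM from 36.2 ± 2.51 to 20.0 ± 1.61 CPM (adjusted p = 9.87e-10). NF-YA5 fell after CIM by 0.72 (adjusted p = 0.014), a call lost without the libraries that stand apart, without library 1 of CIM at 17 °C or without library 2 of CIM at 27 °C, with p up to 0.0879.

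The loci MIR398c, MIR398b, MIR408 and MIR857, of families made when copper is short, were all lower at 27 °C than at 17 °C after SIM. After CIM, MIR398c and MIR398b were lower at 27 °C, and MIR408 and MIR857 did not pass. MIR398c had 282, 267 and 308 counts at 0 h, 484, 511 and 528 after CIM at 17 °C, 298, 245 and 316 after CIM at 27 °C, 511, 436 and 487 after SIM at 17 °C and 164, 137 and 161 after SIM at 27 °C. On each medium every library at 27 °C was below every library at 17 °C. The locus fell with temperature after CIM from 131 ± 9.07 to 64.8 ± 5.69 CPM, a log2 change of -0.98 ± 0.06 (adjusted p = 1.87e-16), and after SIM from 119 ± 1.3 to 35.3 ± 2.71 CPM, a log2 change of -1.75 ± 0.06 (adjusted p = 1.79e-21). The effect after SIM was the larger one, by -0.78 ± 0.09 (adjusted p = 2.51e-08). It rose from 83.6 ± 5.37 CPM at 0 h to CIM at 17 °C, by 0.65 ± 0.06 (adjusted p = 1.14e-12), and fell to CIM at 27 °C, by 0.33 ± 0.06 (adjusted p = 1.54e-05). From CIM to SIM it fell at 27 °C by 0.91 ± 0.07 (adjusted p = 9.06e-13). At 17 °C that change was -0.13 ± 0.05 (adjusted p = 0.0283), and this call was lost under 5 settings and without any 1 of 4 libraries, with p up to 0.393 without library 1 of CIM.

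NRT2.7 had the same changes as MIR398c to within 0.03 on the log2 scale, with -0.96 and -1.75 between the temperatures after CIM and SIM. The counts of MIR398c beyond those of NRT2.7, which are the least number of reads that touch only MIR398c, were 9, 4 and 6 at 0 h, 17, 17 and 23 after CIM at 17 °C, 6, 4 and 10 after CIM at 27 °C, 26, 16 and 19 after SIM at 17 °C and 4, 6 and 8 after SIM at 27 °C. These small numbers too were higher at 17 °C than at 27 °C in every library of both media, and were not tested.

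MIR398b, which gives the same mature sequence, had 39, 47 and 54 counts at 0 h, 29, 29 and 30 after CIM at 17 °C, 18, 20 and 27 after CIM at 27 °C, 32, 32 and 31 after SIM at 17 °C and 19, 16 and 20 after SIM at 27 °C. Its 0 h libraries were the highest, where those of MIR398c were not. It fell from 13.6 ± 1.99 CPM at 0 h to 7.61 ± 0.767 after CIM at 17 °C, by 0.85 ± 0.19 (adjusted p = 0.000126), and to 4.99 ± 0.0386 at 27 °C, by 1.44 ± 0.20 (adjusted p = 5.15e-08). With temperature it fell after SIM, by 0.91 ± 0.22 (adjusted p = 0.00106), where the enclosing gene AT5G14550 fell by 0.41. After CIM it changed by -0.59 ± 0.22 (adjusted p = 0.0323), a call lost with DESeq2 (0.0831), without the libraries that stand apart (0.0966) and without library 1 or 3 of CIM at 17 °C (0.122 and 0.0583) or library 1 or 2 at 27 °C (0.157 and 0.0655). The enclosing gene also fell from 0 h to CIM, by 0.78 at 17 °C and 0.91 at 27 °C.

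MIR408, the source of a miRNA against messenger RNAs of laccases and plantacyanin, had 89, 107 and 124 counts at 0 h, 219, 273 and 262 after CIM at 17 °C, 258, 265 and 260 after CIM at 27 °C, 218, 174 and 189 after SIM at 17 °C and 150, 145 and 158 after SIM at 27 °C. All CIM libraries were above all 0 h libraries. It rose from 31.2 ± 4.66 CPM to 64.7 ± 1.42 after CIM at 17 °C, by 1.05 ± 0.08 (adjusted p = 9.06e-14), and to 62.0 ± 5.40 at 27 °C, by 0.95 ± 0.08 (adjusted p = 8.81e-13). After SIM it was lower at 27 °C, at 34.6 ± 1.49 against 48.2 ± 2.84 CPM, by 0.48 ± 0.08 (adjusted p = 6.63e-06), and after CIM the value was -0.10 ± 0.07 (adjusted p = 0.299). The difference of these effects, -0.38 ± 0.10 (adjusted p = 0.0091), was lost with DESeq2 (0.071), without the libraries that stand apart (0.0784), without library 2 of CIM at 27 °C (0.0509) and without library 1 of SIM at 17 °C (0.0508). On moving from CIM to SIM it fell at 17 °C by 0.42 ± 0.07 (adjusted p = 5e-06) and at 27 °C by 0.80 ± 0.07 (adjusted p = 2.33e-11). The enclosing gene AT2G47020 changed alike, by 1.02 and 1.00 from 0 h to CIM, by -0.28 with temperature after SIM, and by -0.39 and -0.65 from CIM to SIM.

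MIR857 (AT4G13554), which overlaps no other row and whose miRNA acts on the laccase gene LAC7, had 3, 8 and 7 counts at 0 h, 11, 9 and 10 after CIM at 17 °C, 19, 22 and 13 after CIM at 27 °C, 17, 19 and 18 after SIM at 17 °C and 8, 11 and 1 after SIM at 27 °C. After SIM the groups did not overlap. Its level there fell with temperature from 4.52 ± 0.577 to 1.53 ± 1.2 CPM, by 1.54 ± 0.41 (adjusted p = 0.00269), and after CIM the value was 0.69 ± 0.38 (adjusted p = 0.155). The effects differed by -2.23 ± 0.56 (adjusted p = 0.00383). It fell from CIM to SIM at 27 °C, by 1.43 ± 0.41 (adjusted p = 0.00415), a call lost without library 3 of SIM (0.0512), and its rise from 0 h to CIM at 27 °C (1.24 ± 0.43, adjusted p = 0.00916) was lost without library 1 at 0 h (0.0673), without library 2 of CIM (0.0606) and without the libraries that stand apart (0.0559). LAC7 (AT3G09220) rose with temperature after SIM from 8.23 ± 1.02 to 24.2 ± 6.95 CPM, by 1.55 (adjusted p = 0.00642), and had -0.31 after CIM (adjusted p = 0.546).

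The targets of miR398 and miR408 are compared with shares of 39.8% of all rows called after CIM and 41.3% after SIM. The superoxide dismutase genes CSD1 and CSD2 and their chaperone CCS, the targets of miR398, passed in 1 of 6 tests, the rise of CSD2 (AT2G28190) after SIM from 32.8 ± 2.23 to 41.7 ± 2.40 CPM (adjusted p = 0.00113). The values of CSD1 were 0.05 after CIM and 0.11 after SIM (adjusted p = 0.734 and 0.38). Among 4 miR408 targets the laccase gene LAC3 (AT2G30210) fell after SIM, from 92, 93 and 95 counts at 17 °C to 3, 2 and 2 at 27 °C (adjusted p = 7.58e-07). LAC12 rose by 0.42 (adjusted p = 0.0471), a call lost under 6 settings, with p up to 0.16. ARPN and LAC13 did not pass after either medium. ARPN had 0.27 after CIM and -0.76 after SIM (adjusted p = 0.261 and 0.065). The values of LAC13 were 0.35 and 0.11 (adjusted p = 0.137 and 0.635).

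MIR824 (AT4G24415), the source of a miRNA against the MADS-box factor AGL16, showed the largest rise among the transcripts with over 1000 counts. It had 9, 11 and 8 counts at 0 h, 133, 183 and 204 after CIM at 17 °C, 192, 180 and 204 after CIM at 27 °C, 138, 104 and 147 after SIM at 17 °C and 82, 73 and 50 after SIM at 27 °C. Every library on medium was far above every 0 h library. It rose from 2.73 ± 0.458 CPM to 44.3 ± 5.36 after CIM at 17 °C and 44.5 ± 0.191 at 27 °C, by 4.01 ± 0.19 on the log2 scale at each temperature (adjusted p = 4.73e-18 and 2.7e-18). After CIM the temperatures gave the same level (0.00 ± 0.09, adjusted p = 0.981), and after SIM the level at 27 °C was lower, at 15.6 ± 3.65 against 32.2 ± 3.86 CPM, by 1.04 ± 0.13 (adjusted p = 5.08e-08). The difference of the effects was -1.04 ± 0.16 (adjusted p = 7.53e-06). From CIM to SIM it fell at 17 °C by 0.46 ± 0.10 (adjusted p = 0.000271) and at 27 °C by 1.5 ± 0.11 (adjusted p = 1.73e-12).

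The AGL16 site for miR824 (chr3:21180537-21180557, plus strand) is shown for its near-perfect match, with the 1 base that pairs only as G with U in capitals.
AGL16 site: tcTcttctcacaaatggtcta
AGL16 (AT3G57230) stood at 53.8 ± 3.88 CPM at 0 h, 36.8 ± 4.47 after CIM at 17 °C, 45.6 ± 1.00 after CIM at 27 °C, 43.7 ± 4.17 after SIM at 17 °C and 32.9 ± 1.26 after SIM at 27 °C. It rose with temperature after CIM by 0.33 (adjusted p = 0.00152), a call lost without library 2 of CIM at 17 °C (0.053), and fell after SIM by 0.41 (adjusted p = 0.000123), so that after SIM AGL16 and MIR824 were both lower at 27 °C.

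MIR163 (AT1G66725) rose at each step at 17 °C and was lower at 27 °C on both media. Its miRNA is 24 nucleotides long and acts on methyltransferase messenger RNAs such as PXMT1. It had 0, 1 and 2 counts at 0 h, 18, 29 and 27 after CIM at 17 °C, 9, 11 and 12 after CIM at 27 °C, 80, 51 and 65 after SIM at 17 °C and 45, 43 and 24 after SIM at 27 °C. No pair of groups compared overlapped. The ratio of CIM to 0 h was 21.7 at 17 °C (95% counting interval 7.14 to 108, adjusted p = 2.98e-09) and 8.44 at 27 °C (2.64 to 43.1, adjusted p = 7.68e-05). With temperature it fell after CIM from 6.29 ± 0.922 to 2.54 ± 0.271 CPM, by 1.35 ± 0.30 (adjusted p = 0.000453), and after SIM from 16.2 ± 2.55 to 8.55 ± 2.63 CPM, by 0.92 ± 0.20 (adjusted p = 0.000248). From CIM to SIM it rose by 1.35 ± 0.21 at 17 °C (adjusted p = 2.06e-06) and 1.78 ± 0.28 at 27 °C (adjusted p = 1.86e-06).

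PXMT1 (AT1G66700) was lower at 27 °C as well, with 10, 24 and 21 counts after CIM at 17 °C, 3, 4 and 1 at 27 °C, 9, 11 and 10 after SIM at 17 °C and 0, 2 and 0 at 27 °C. The adjusted p was 6.51e-05 after CIM and 0.000312 after SIM. At 0 h, where MIR163 was lowest, PXMT1 was highest, with 90, 57 and 42 counts.

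MIR168a (AT4G19395), whose miRNA acts on AGO1, was lowest before callus induction. It had 3, 2 and 1 counts at 0 h, 14, 7 and 15 after CIM at 17 °C, 15, 9 and 13 after CIM at 27 °C, 10, 11 and 9 after SIM at 17 °C and 14, 13 and 16 after SIM at 27 °C. The 0 h libraries were below all others. It rose from 0.588 ± 0.302 CPM by 2.34 ± 0.52 on the log2 scale at 17 °C (adjusted p = 0.000124) and by 2.23 ± 0.52 at 27 °C (adjusted p = 0.000223). AGO1 (AT1G48410) lay between 195 ± 6.47 and 221 ± 3.56 CPM in all 5 groups. MIR822 (AT5G03552), a transcript of a young miRNA family, had 6, 9 and 2 counts at 0 h, 8, 11 and 13 after CIM at 17 °C, 3, 3 and 5 after CIM at 27 °C, 8, 2 and 5 after SIM at 17 °C and 4, 0 and 0 after SIM at 27 °C. Its fall with temperature after CIM (-1.66 ± 0.56, adjusted p = 0.0164) was lost with DESeq2 (0.0549), without library 3 of CIM at 17 °C (0.0561), without library 1 of CIM at 27 °C (0.0602) and without the libraries that stand apart (0.113).

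**Figure D4:**
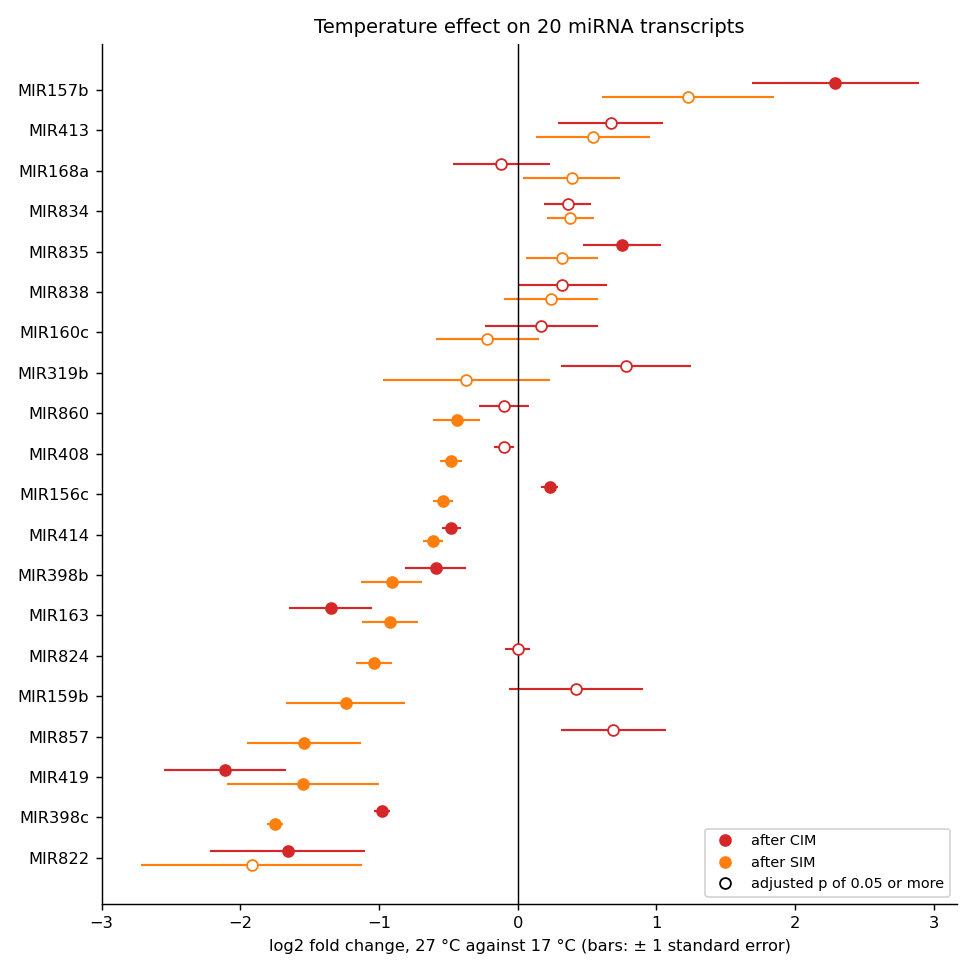
Log2 fold change of 27 °C against 17 °C (x axis) of 20 named miRNA transcripts after CIM (red) and after SIM (orange), with bars of 1 standard error and open circles where the adjusted p was 0.05 or more. MIR167d, MIR169a and MIR156f are not drawn, since a group had 3 counts or fewer, and most orange points lie left of 0, with MIR398c at -1.75.

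Some rows may not be classical miRNA precursors, and of those named next only MIR414 was abundant. It had 2472 counts in all, against 138 for MIR419 and 140 for MIR413. MIR414 (AT1G67195), MIR419 (AT4G32445) and MIR413 (AT1G62355) come from early computer prediction, and their standing as miRNAs has been doubted. MIR414 had 109, 124 and 113 counts at 0 h, 184, 208 and 233 after CIM at 17 °C, 163, 165 and 169 after CIM at 27 °C, 205, 190 and 191 after SIM at 17 °C and 136, 142 and 140 after SIM at 27 °C. On both media the groups at 17 °C were above those at 27 °C without overlap. It fell with temperature after CIM from 53.7 ± 3.07 to 39.1 ± 2.62 CPM, by 0.48 ± 0.07 (adjusted p = 8.81e-07), and after SIM from 48.8 ± 2.46 to 32 ± 1.47, by 0.61 ± 0.07 (adjusted p = 2.83e-08). It rose from 33.8 ± 2.18 CPM at 0 h to CIM at 17 °C by 0.67 ± 0.08 (adjusted p = 1.52e-09). Its fall from CIM to SIM at 27 °C (-0.27 ± 0.08, adjusted p = 0.0141) was lost with DESeq2 (0.0518), without library 2 of CIM (0.0953), without library 1 of SIM (0.0779) and without the libraries that stand apart (0.0925).

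MIR419 had 14, 9 and 16 counts at 0 h, 12, 14 and 26 after CIM at 17 °C, 6, 4 and 3 after CIM at 27 °C, 10, 4 and 11 after SIM at 17 °C and 5, 3 and 1 after SIM at 27 °C. After CIM the groups did not overlap, and it fell with temperature from 4.41 ± 1.66 to 1.01 ± 0.0199 CPM, by 2.11 ± 0.44 (adjusted p = 0.000163). It was also lower after CIM at 27 °C than at 0 h, by 1.89 ± 0.46 (adjusted p = 0.000402). After SIM it fell with temperature by 1.55 ± 0.55 (adjusted p = 0.0216), a call lost with DESeq2 (0.051) and without library 1 or 3 of SIM at 17 °C (0.0711 and 0.103) or library 3 at 27 °C (0.115). Its fall from CIM to SIM at 17 °C (-1.09 ± 0.38, adjusted p = 0.0189) was lost with DESeq2 (0.0644), without library 3 of CIM (0.197), without library 2 of SIM (0.115) and without the libraries that stand apart (0.206).

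Over the 7 comparisons there were 13 calls of a transcript inside a gene on the same strand. The host was called in the same direction in 12 of them, 5 each for CIM against 0 h at 17 °C and at 27 °C, where 36.4% to 38.9% of all rows were called in each direction, 1 for temperature after SIM and 1 for SIM against CIM at 27 °C. Without MIR400 and MIR156f, which were kept through 1 group, it was 8 of 9 calls. In the other, MIR835 between the temperatures after CIM, the host did not pass. For the 4 transcripts opposite to a gene there were 23 calls, with the partner called the same way in 20 and not called in 3. These are repeated calls of the same 4 loci in linked comparisons. MIR398c, MIR408 and MIR398b share 80.8%, 100.0% and 100.0% of their rows with the partner. As the counts did not separate the strands, reads in the shared bases can count for both rows. Like calls there thus say nothing more about the transcripts. MIR398b had only 0.0667 to 0.140 times the counts of AT5G14550, so most counts of that gene lay outside its row. Transcripts that did not pass also had values unlike their hosts. From 0 h to CIM at 17 °C, MIR850 had a log2 value of -0.54, from 4 to 3 counts over the group, where its host rose by 1.45. MIR852 had 0.73, from 2 to 4 counts, where its host fell by 0.53. Both were kept through 1 group, and counts this low cannot set them apart from their hosts. How much of this likeness comes from shared reads was not tested. On the same strand 9 transcripts lay in no annotated exon of the partner and 6 had over 50% of their bases in its exons, and the read density of the transcript was 0.077 to 3.082 times that of the partner, with a median of 1.26.

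MIR838 (AT1G01046) lies in an intron of DCL1, the nuclease that makes miRNAs, and had a density of 0.863 times that of the DCL1 row. It had 22, 23 and 18 counts at 0 h, 11, 12 and 10 after CIM at 17 °C, 19, 13 and 14 after CIM at 27 °C, 9, 8 and 14 after SIM at 17 °C and 17, 14 and 9 after SIM at 27 °C. The 0 h libraries were above the CIM libraries once depth was scaled. It fell from 0 h to CIM by 1.11 ± 0.30 at 17 °C (adjusted p = 0.00148) and 0.79 ± 0.28 at 27 °C (adjusted p = 0.0131), and DCL1 (AT1G01040) fell by 0.39 and 0.30 (adjusted p = 9.4e-11 and 1.36e-08), from 188 ± 0.929 CPM to 144 ± 2.61 and 151 ± 5.96.

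MIR834 (AT5G08210), with 84.3% of its bases in exons of AT5G08230, had 49, 45 and 49 counts at 0 h, 30, 37 and 35 after CIM at 17 °C, 45, 53 and 47 after CIM at 27 °C, 39, 29 and 31 after SIM at 17 °C and 49, 47 and 44 after SIM at 27 °C. It fell from 0 h to CIM at 17 °C by 0.67 ± 0.17 (adjusted p = 0.000543), where the host fell by 0.34. With temperature its values were 0.36 ± 0.17 after CIM and 0.38 ± 0.17 after SIM (adjusted p = 0.117 and 0.0943), and the host rose by 0.20 and 0.37.

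MIR860 (AT5G26038), wholly in an exon of the ferrochelatase gene FC1, had 26, 31 and 28 counts at 0 h, 30, 39 and 42 after CIM at 17 °C, 38, 38 and 39 after CIM at 27 °C, 49, 43 and 43 after SIM at 17 °C and 31, 44 and 33 after SIM at 27 °C. It was lower at 27 °C after SIM, by 0.44 ± 0.17 (adjusted p = 0.0424), and FC1 by 0.34. The call of MIR860 was lost with DESeq2 (0.125), with no filter on low counts (0.057) and without any library of SIM at 17 °C (0.108, 0.1 and 0.0532) or library 1 or 3 at 27 °C (0.212 and 0.131).

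MIR835 (AT1G76062), wholly in an exon of AT1G76065, had 13, 8 and 13 counts at 0 h, 13, 15 and 14 after CIM at 17 °C, 23, 18 and 38 after CIM at 27 °C, 18, 19 and 21 after SIM at 17 °C and 23, 32 and 24 after SIM at 27 °C. Its rise with temperature after CIM (0.75 ± 0.28, adjusted p = 0.0301) rested on library 3 at 27 °C, without which the adjusted p was 0.283, and was also lost with DESeq2 (0.091) and without library 2 or 3 at 17 °C (0.0618 and 0.0797). Its rise from 0 h to CIM at 27 °C (0.87 ± 0.29, adjusted p = 0.00768) was lost without library 2 at 0 h (0.0609) and without library 3 of CIM (0.133). MIR413 shares 65.9% of its row with AT1G62350 and had 4, 4 and 8 counts at 0 h and 14, 14 and 15 after CIM at 27 °C. Its rise there (1.08 ± 0.42, adjusted p = 0.0207) was lost with DESeq2 (0.0611) and without library 1 or 2 at 0 h (0.0821 and 0.083), and the host rose by 1.35. In the other groups MIR413 had 11, 9 and 4, then 9, 9 and 4, then 13, 11 and 11 counts (CIM at 17 °C, SIM at 17 °C, SIM at 27 °C).

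The other 33 transcripts had totals of 20 to 107 counts. Of these, 15 passed no comparison and 18 passed at least 1 but stayed under 2 CPM in every group. Among the 18, of which 9 were kept through 1 group, a few are named here after their values were seen. MIR390a (AT2G38325), the source of the trigger of tasiRNA from TAS3, had 7, 6 and 7 counts after CIM at 17 °C, 0 in all libraries of 0 h and of CIM at 27 °C, 0, 1 and 1 after SIM at 17 °C and 0, 0 and 1 after SIM at 27 °C. After CIM it was thus at least 7.41-fold lower at 27 °C, and from 0 h to CIM at 17 °C at least 5.87-fold higher. It is a member only through the 20 counts after CIM at 17 °C, so no test is given. MIR172a (AT2G28056), the source of a miRNA against AP2-type factors of the juvenile phase, had 6, 7 and 7 counts at 0 h and 0 to 3 in every library on medium. MIR164b (AT5G01747), the source of a miRNA against CUC1 and CUC2, had 5, 4 and 10 counts at 0 h and 0 to 3 in every library on medium. Both MIR172a and MIR164b were kept only through their 0 h reads, so no test is given. MIR171b (AT1G11735), the source of a miRNA against GRAS factors of the meristem, had 5, 8 and 12 counts after CIM at 27 °C and 0, 2 and 1 after SIM at 27 °C, and fell from CIM to SIM by a ratio of 8.42 (2.57 to 43.6, adjusted p = 0.00201).

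The genes of miRNA production and of the listed targets give the setting of these values, from lists chosen with earlier results of these data known. Of 27 machinery genes, 9 rose and 4 fell at 27 °C after CIM, where 19.4% of all rows rose and 20.4% fell. After SIM 7 rose and 3 fell, where 19.6% and 21.7% of all rows did, with medians after CIM and SIM of 0.13 and 0.03 on the log2 scale beside 0.01 and -0.00 over all rows. From 0 h to CIM 19 rose and 4 fell at 17 °C, and 20 rose and 5 fell at 27 °C, where 37.6% and 38.9% of all rows rose and 36.4% and 37.9% fell. AGO2, an Argonaute with a role in antiviral defence, fell with temperature after CIM from 143 ± 5.47 to 94.3 ± 1.71 CPM (adjusted p = 4.42e-13). DCL4, which makes tasiRNA, rose by 0.41 after CIM and 0.34 after SIM (adjusted p = 2.92e-08 and 7.49e-07). RDR6, which makes its double-stranded precursor, rose by 0.25 and 0.33 (adjusted p = 6.4e-05 and 9.61e-07). AGO10, which holds miR165 and miR166 away from AGO1 in the meristem, fell after SIM by 0.24 (adjusted p = 1.52e-05). Its rise of 0.15 after CIM (adjusted p = 0.00479) was lost without library 3 of CIM at 17 °C and without the libraries that stand apart, with p up to 0.152. STA1 fell by 0.20 and DDL rose by 0.33 after CIM (adjusted p = 1.64e-05 and 7.45e-05). Of 101 listed targets 96 were tested, and at 27 °C 27 rose and 16 fell after CIM and 25 rose and 24 fell after SIM, where 39.8% and 41.3% of all rows were called. The medians over them were 0.10 and 0.02 on the log2 scale.

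**Figure D5:**
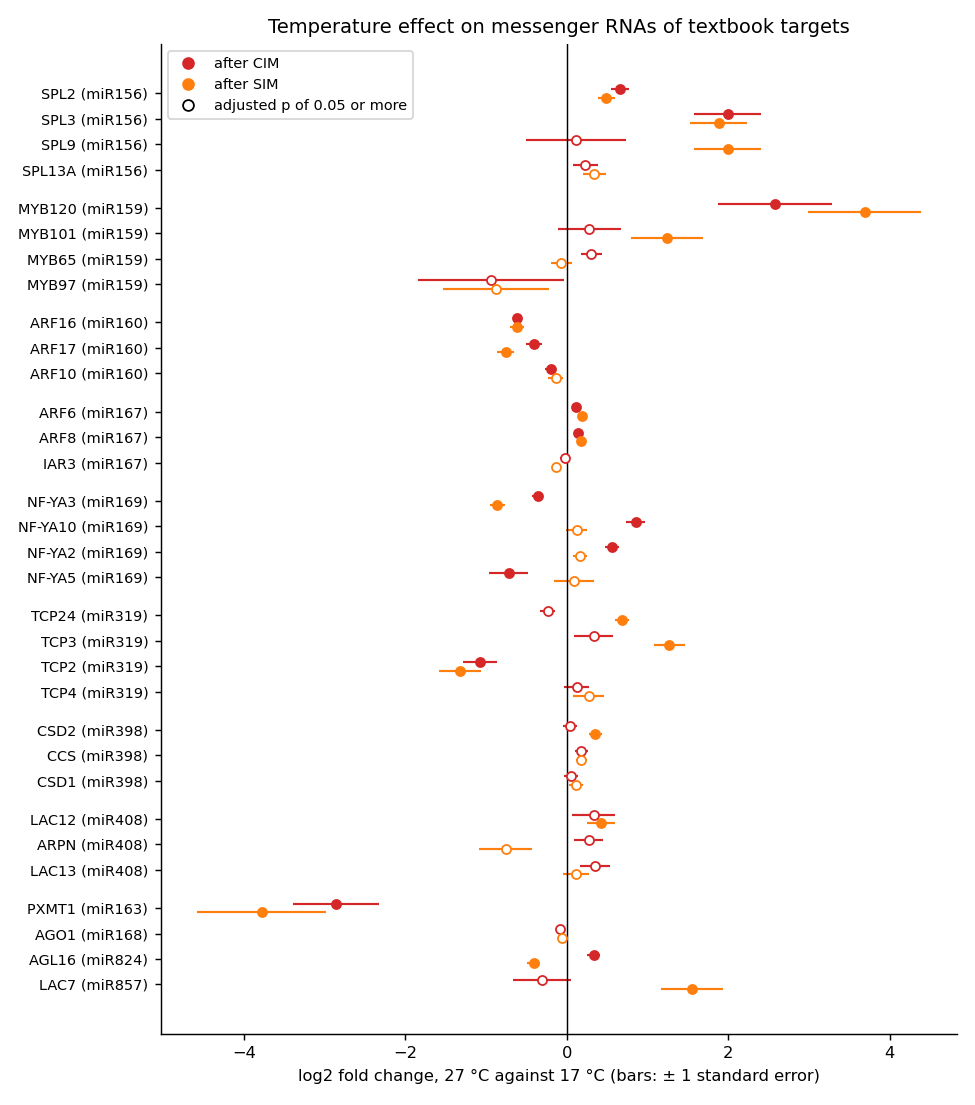
Log2 fold change of 27 °C against 17 °C (x axis) of textbook target messenger RNAs of the named miRNA families (y axis, family in brackets), after CIM (red) and after SIM (orange), with bars of 1 standard error and open circles where the adjusted p was 0.05 or more. SPL3 lies near 2 on both media and ARF16 at -0.62 on both, while LAC3, at -5.36 after SIM, is not drawn because it had 0 to 10 counts per library after CIM. For miR319, TCP4 is drawn in place of TCP10.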

How the data were processed

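The labels name KAPA stranded mRNA kits for the 15 samples. In the deposited table each annotated row holds the authors' read counts, which were used as given. The submitters' processing notes name FastQC 0.11.7, Bowtie2 2.3.4.3, SAMtools 1.9, bedtools 2.26.0 and the build TAIR10. Strand use and the handling of reads that map to several places are not given in the sources used here. Of the per-sample columns, 0 were unused. Of the rows, 32823 matched a reference gene by identifier, all overlapping it, and mature sequences were read from TAIR10.1 at the annotated positions.

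The 22559 rows with at least 20 counts over the 15 libraries were scaled by TMM (factors 0.919 to 1.04) and fitted in 1 edgeR 4.0.16 quasi-likelihood model (R 4.3.3) with a mean per group. Within a comparison, p-values were adjusted over all these rows (Benjamini-Hochberg, limit 0.05). The common dispersion was 9.77e-05, little beyond counting noise. Against a group at 0, folds were bounds at a floor of 3 counts over the group, and with 1 to 3 counts ratios carry an exact 95% interval. Named were transcripts that passed in at least 1 of 7 comparisons with a mean of at least 2 CPM in a group, up to 4 targets per family and 6 machinery genes by the smallest p between temperatures. The members and lists were chosen with earlier results of these data known. The edgeR test alone was tried on simulated data, for the temperature comparison after CIM and at a dispersion above the fitted one. The changed rows were drawn from all rows tested, so the trial does not show how the test performs at the low counts of most miRNA rows. Figures and tables were made with Python 3.11.15, pandas 2.3.3 and matplotlib 3.10.9.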

Additional observations from a re-analysis of the deposited data

Results flagged for a closer look

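For 5 transcripts the temperature effect differed between the SIM and CIM groups by the test of the difference itself (edgeR). Values are the effect of 27 °C after SIM minus that after CIM, on the log2 scale. The SIM groups had also been longer in culture and at the temperature. The difference was -2.23 for MIR857, -1.04 for MIR824, -0.78 for MIR398c, -0.77 for MIR156c and -0.38 for MIR408. For MIR408 the call was lost with DESeq2 (adjusted p = 0.071), without the libraries that stand apart (0.0784), and without library 2 of CIM at 27 °C (0.0509) or library 1 of SIM at 17 °C (0.0508). MIR398c and MIR408 share their reads with NRT2.7 and AT2G47020, whose differences were -0.79 (adjusted p = 1.81e-08) and -0.26 (adjusted p = 0.061, not past the limit).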

How the results depend on the processing

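Of the 78 calls of named miRNA transcripts, leaving aside MIR156f, 60 were kept under every alternative run and 18 were lost under at least 1, with 0 reversed. DESeq2's Wald test lost 14 and leaving out the libraries that stand apart lost 8. DESeq2 size factors lost 0. Of 54 calls of named targets and machinery genes, 40 were kept throughout.

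The counts of transcripts called moved by over 1.5 times in these cases. With filterByExpr, which tests only 21 of the 56, the calls were 14 and 17 for CIM against 0 h at 17 °C and 27 °C, and 7 and 8 for SIM against CIM. With DESeq2 the calls for SIM against CIM were 6 at 17 °C and 8 at 27 °C, and without the libraries that stand apart 7 at 17 °C. Apart from the smaller number of rows tested, the cause was not tested. Leaving out 1 library gave 8 to 8 calls for SIM against CIM at 17 °C, 8 to 12 at 27 °C, 8 to 11 between temperatures after CIM, 10 to 15 after SIM, 4 to 5 for the difference, and 21 to 24 and 23 to 28 for CIM against 0 h. A minimum of 50 counts kept 28 transcripts, one of 10 kept 68, and 36 shared no base with another row.

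The replicate numbers do not pair the libraries, since 30 pairs of equal number had correlations of -0.212 to 0.0886 and those of unequal number -0.0991 to 0.200. With the replicate number as a block the calls were 11, 14 and 5 for temperature after CIM, after SIM and their difference, 25 and 27 for CIM against 0 h, and 12 and 12 for SIM against CIM. The median total was 51 counts over 15 libraries, and the median standard error of a log2 fold change between temperatures was 0.66 after CIM and 0.77 after SIM, where it was 0.10 over all rows in both.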
